A study of Danio rerio with 12 samples.

Results

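Haemoglobin and red cell genes were followed in hearts of zebrafish (Danio rerio) at 6, 12, 24 and 36 months of age. The genes were chosen by name: the adult beta globins hbba1 and hbba2, the adult alpha globins hbaa1 and hbaa2, the haem synthesis enzyme alas2 and the erythroid transcription factor gata1a. These 6 names stand for 7 of the 50640 gene rows, because hbba1 names a pair of rows, called copy A (ENSDARG00000097238) and copy B (ENSDARG00000089087) below. Each age had 3 libraries of total RNA, taken from hearts with Trizol and sequenced on an Illumina HiSeq, 12 libraries in all. The fish were kept under standard conditions, and the labels give no sex, strain, genotype or number of hearts per library. The replicates may be separate animals, pools or repeats, and p-values here cover the spread among the libraries, which may be technical.

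Haemoglobin carries oxygen as a tetramer of alpha and beta globin chains, each holding a haem group. Alas2 makes the first product of haem synthesis in red cell precursors, and gata1a switches on globin and haem genes as those precursors mature. Fish red cells keep their nucleus and circulate through the heart lumen, so a heart sample holds blood as well as muscle. Zebrafish globin genes lie in a major locus on chromosome 3 and a minor locus on chromosome 12, in which alpha and beta genes alternate, and embryos and larvae use other members of these loci than adults do. In whole-heart RNA, fewer red cells and less globin RNA per cell cannot be told apart.

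The libraries held 7333060 to 11145869 reads in genes. Levels are FPKM, fragments per kilobase of gene scaled by library size, and for a gene of 1 kilobase a single read was worth 0.0878 to 0.136 FPKM. Of all rows, 15524 are loci without a gene name, several of which lie over the globin genes on the same strand, and a read in such an overlap may be given to either or to neither. Replicate 1 of 6 months was the library least like the others of its age (mean r of log2(FPKM + 1) over 16223 genes 0.907, against 0.927 to 0.957 in the other libraries). The heart label was checked against markers: the cardiac transcription factor nkx2.5 was at 90.0 to 169 FPKM and the cardiac myosin light chain myl7 at 24.7 to 190. The ventricular myosin vmhc and the troponin tnnt2a were at 0 in 6 libraries each, each with an overlapping locus without a name. The actin gene actc1a, also with such a locus, was at 0.372 to 4.59 FPKM.

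The named haemoglobin gene with the most reads was hbba2 (ENSDARG00000069734, GRCz11 chromosome 3, 54836628 to 54837449, minus strand). No locus without a name overlaps it on its strand, and it took 91.0% to 98.6% of the reads of all named haemoglobin genes in a library and 0.0802% to 0.439% of all reads in genes. With the globin loci without a name on chromosome 3 counted as well, its share was 55.8% to 97.7%, lowest in replicate 2 of 6 months and next lowest in replicate 1 of 24 months (63.4%). At 6 months its level was 5590, 2128 and 2576 FPKM in replicates 1, 2 and 3. At 12 months it was 5940, 5692 and 6610 FPKM. At 24 months it was 2902, 1755 and 1179 FPKM, and at 36 months 2405, 3067 and 3959 FPKM. In FPKM, all 3 libraries of 12 months stood above the other 9, replicate 1 of 6 months came next, and the lowest pair were of 24 months. As a share of reads in genes the 12-month libraries did not stand apart. Replicate 1 of 6 months (0.409%) lay above replicates 1 (0.379%) and 2 (0.345%) of 12 months and below replicate 3 (0.439%). These levels put hbba2 between rank 5 and rank 88 among all genes of a library, counted from 5932 to 48956 reads.

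By mean level the ages ran from 12 months (6081 ± 475 FPKM, SD, n = 3) through 6 months (3431 ± 1883) and 36 months (3144 ± 780 FPKM) to 24 months (1946 ± 877 FPKM). On log2(FPKM + 1), hbba2 differed between 24 and 12 months by -1.74 (95% interval -2.58 to -0.90), which did not pass (limma, adjusted p = 0.0699). It was 0.96 from 6 to 12 months (interval 0.114 to 1.797, adjusted p = 0.456) and -0.98 from 12 to 36 months (interval -1.82 to -0.14, adjusted p = 0.170). Between 6 and 36 months the difference was -0.02 (interval -0.86 to 0.82, adjusted p = 0.978). The F test over the 4 ages gave an adjusted p of 0.0779, and the linear trend in months 0.483. Neighbours in the order of levels, 12 and 6 months, 6 and 36 months, and 36 and 24 months (0.76, interval -0.08 to 1.60, adjusted p = 0.346), thus did not differ at the threshold of 0.05. Without replicate 1 of 6 months, limma called hbba2 for 24 against 12 months (adjusted p = 0.0254) and over the 4 ages (adjusted p = 0.0238), and with a minimum mean of 5 FPKM it called the former (adjusted p = 0.0466). Over all alternatives the adjusted p ran from 0.0254 to 0.199 for 24 against 12 months and from 0.0238 to 0.190 over the 4 ages.

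Of the 7 rows, 3 had a mean of at least 1 FPKM and were tested: hbba2, alas2 and hbba1 copy B, of which copy B passed the minimum through replicate 1 of 36 months. limma called 0 of the 3 in each of the 8 comparisons at an adjusted p of 0.05. At an unadjusted p under 0.05, hbba2 alone passed, in 4 of the 8 (12 against 6, 24 against 12 and 36 against 12 months, and the F test), where 9.45%, 14.5%, 22.2% and 25.3% of all genes tested did so. Among all genes tested, limma called 0.0185% between 6 and 12 months, 0.709% between 6 and 24 months and 8.25% between 6 and 36 months. Between 12 and 24 months it called 0.715%, between 12 and 36 months 3.14% and between 24 and 36 months 1.12%. The F test called 5.28% of all genes and the trend 8.27%, 4.25% rising and 4.02% falling. A count of 0 in 3 is near this background.

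**Figure D1:**
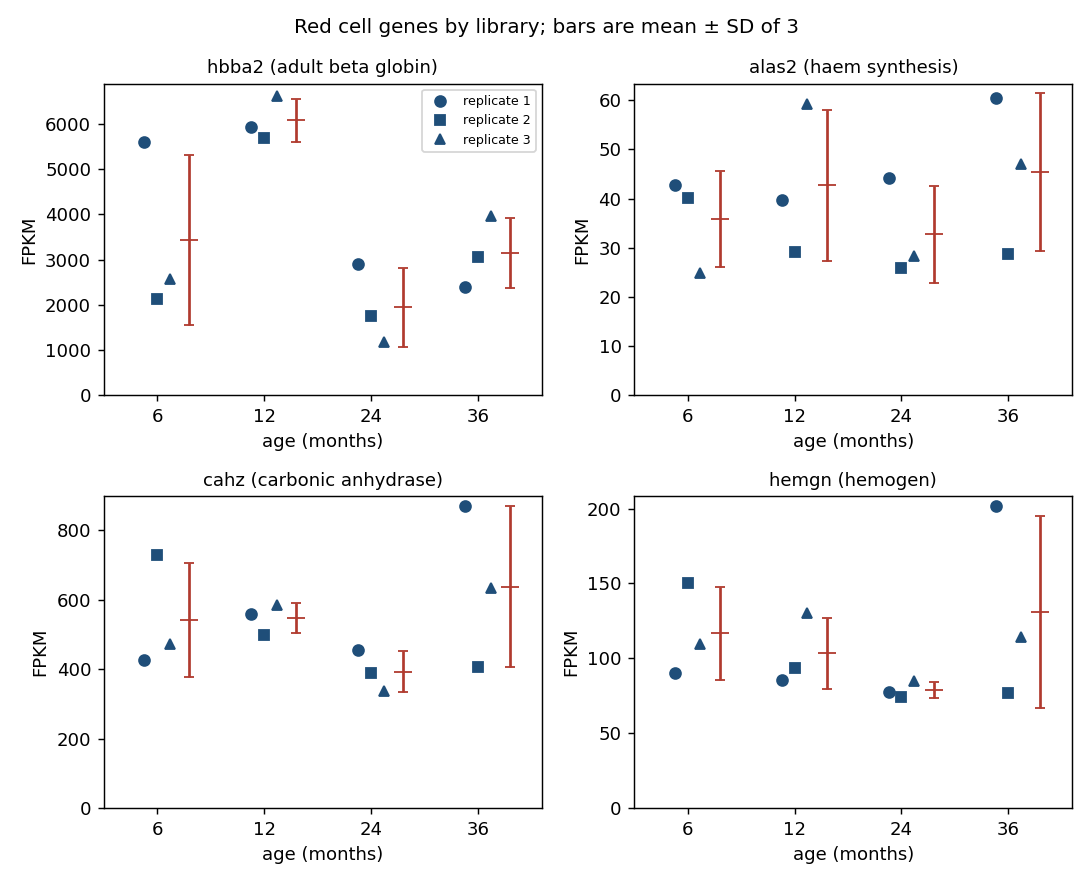
Level (FPKM, linear axes from 0) of hbba2, alas2, cahz and hemgn in each library by age in months; symbols mark the replicate and bars the mean ± SD of 3. The 12-month hbba2 libraries, at 5692 to 6610 FPKM, stand above the other 9, while the ages overlap for alas2.

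The chromosome 3 locus also showed how the annotation divides its reads. Copy A of hbba1 (chromosome 3, 54843855 to 54844670, minus strand) held 0 to 1.54 FPKM, 16 reads in all. Copy B (54848843 to 54849708, minus strand) held 0 to 1.84 FPKM in 11 libraries and 7.91 in replicate 1 of 36 months. A locus without a name that carries a globin domain spans both copies on their strand (54843855 to 54849708) and held 8.47 to 55.6 FPKM from 2650 reads, highest again in replicate 1 of 36 months. With the reads of the overlapping loci added, copy A had a mean of 40.0 FPKM and copy B of 30.4 FPKM, and neither was called in any comparison. The reads of the locus over both were added to each copy and scaled by the copy's own length (617 and 843 bases). Both levels thus rest largely on the same reads and do not compare the copies. The copies cannot be measured apart here, since that locus covers both and near-identical globins can share reads.

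The alpha globin hbaa1 (ENSDARG00000097011, chromosome 3, 54845443 to 54851382, plus strand) was listed at 0 in all 12 libraries, whereas a locus without a name that carries a globin domain and covers 99.7% of it on its strand held 45156 reads. At 6 months this locus over hbaa1 was at 8.49, 823 and 83.6 FPKM, and at 12 months at 313, 79.7 and 360 FPKM. At 24 months it was at 800, 209 and 7.65 FPKM, and at 36 months at 154, 540 and 563 FPKM. Libraries of one age differed by up to 105-fold, every pair of ages overlapped, and no comparison passed (F test, limma, adjusted p = 0.760). Its residual SD of 2.46 on the log2 scale was above that of 99.3% of the 292 genes within 2-fold of its level. With its reads given to hbaa1 and scaled by that gene's 903 bases (1232 for the locus), hbaa1 had 10.4 to 1123 FPKM. It was called in no comparison (36 against 6 months, limma, adjusted p = 0.482). The locus also covers a row named HBZ (1 of many) on the same strand (ENSDARG00000079078, 54850464 to 54851364), listed at 0 in all 12 libraries. To which of these genes its reads belong cannot be told here.

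The other alpha globin, hbaa2 (ENSDARG00000069735, chromosome 3, 54838979 to 54839797, plus strand), starts 2.35 kilobases from the left end of hbba2. It was listed at 0 in 10 libraries and held 1.01 FPKM in replicate 2 and 0.311 FPKM in replicate 3 of 12 months, from 7 reads. The locus without a name over it was at 0 in all libraries. The levels of hbba2 and of the locus over hbaa1 had a Pearson r of 0.14 on the log2 scale over the 12 libraries, which share depth and scaling. In replicate 1 of 6 months hbba2 was at 5590 FPKM while that locus was at 8.49, and in replicate 2 hbba2 was at 2128 FPKM while the locus was at 823.

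**Figure D2:**
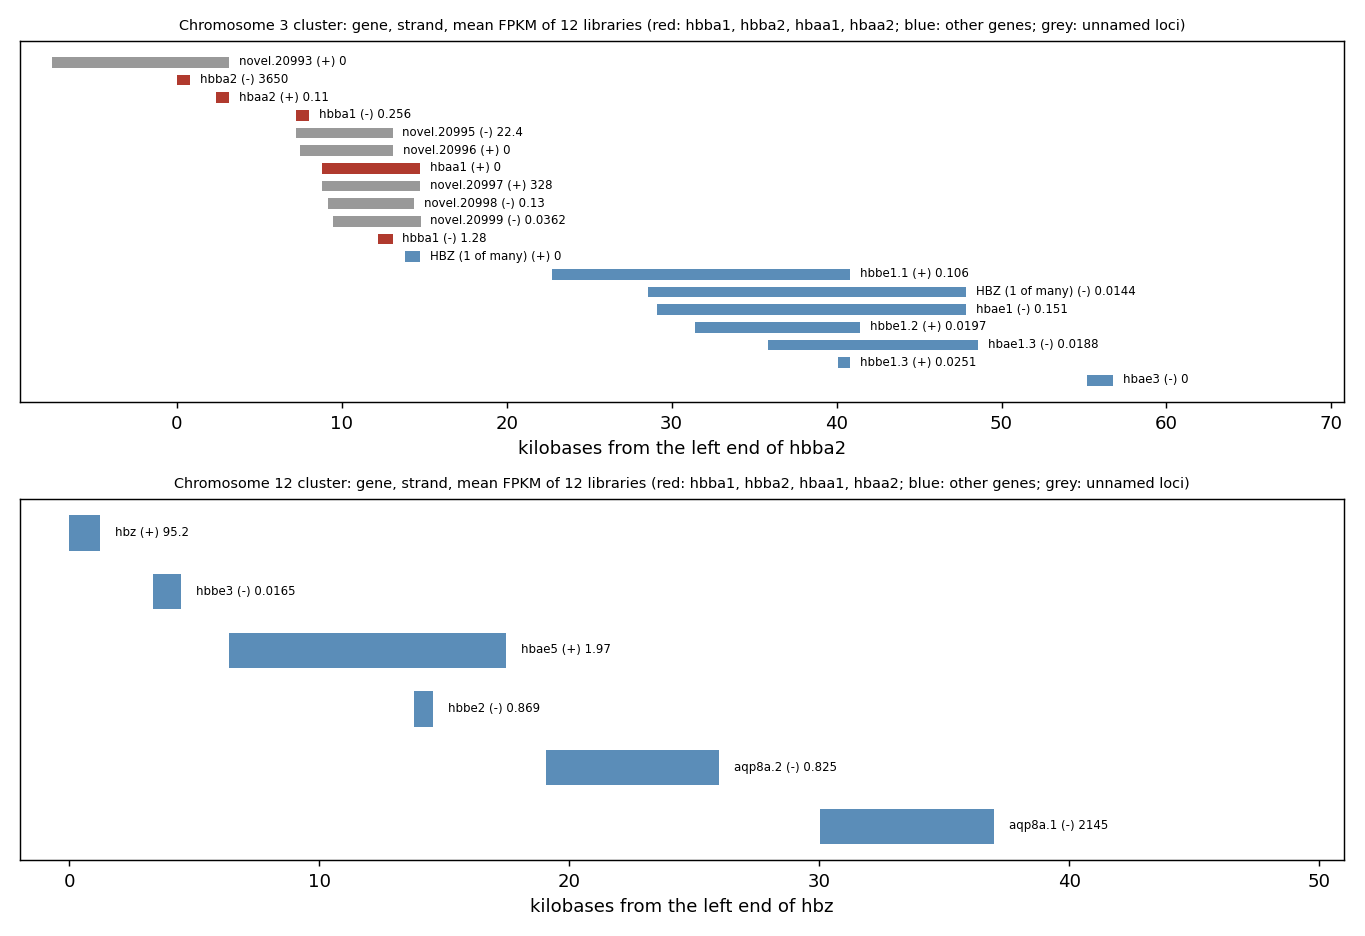
Genes and loci without a name of both globin loci, placed by distance in kilobases from the left end of hbba2 (top) or hbz (bottom), with strand and mean FPKM over 12 libraries after each name. On chromosome 3 the reads fall on hbba2 (3650 FPKM) and on the loci without a name over hbaa1 (328) and over hbba1 (22.4), and among the chromosome 12 globins on hbz (95.2).

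Myoglobin, the oxygen-storing globin of muscle, showed a like spread. The level of mb was 103, 204 and 0.348 FPKM at 6 months, 374, 88.7 and 42.1 at 12 months, 169, 159 and 0.347 at 24 months, and 171, 0.899 and 137 at 36 months. Replicate 3 of 6 months, replicate 3 of 24 months and replicate 2 of 36 months were near 0, and the locus without a name over mb was at 0.58 to 1.28 FPKM throughout. The residual SD of mb was 3.44 on the log2 scale, above 99.9% of the 717 genes within 2-fold of its level, and it was called in no comparison (36 against 6 months, limma, adjusted p = 0.967). Replicate 3 of 24 months was the lowest library both for mb and for the locus over hbaa1. In the other libraries with mb near 0 the locus was not near 0. Where the locus was next lowest, in replicate 1 of 6 months (8.49 FPKM), mb was at 103 FPKM. Over the 12 libraries mb and the locus had a Pearson r of 0.37 on the log2 scale. The cause of the spread of mb and of the locus was not tested.

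**Figure D3:**
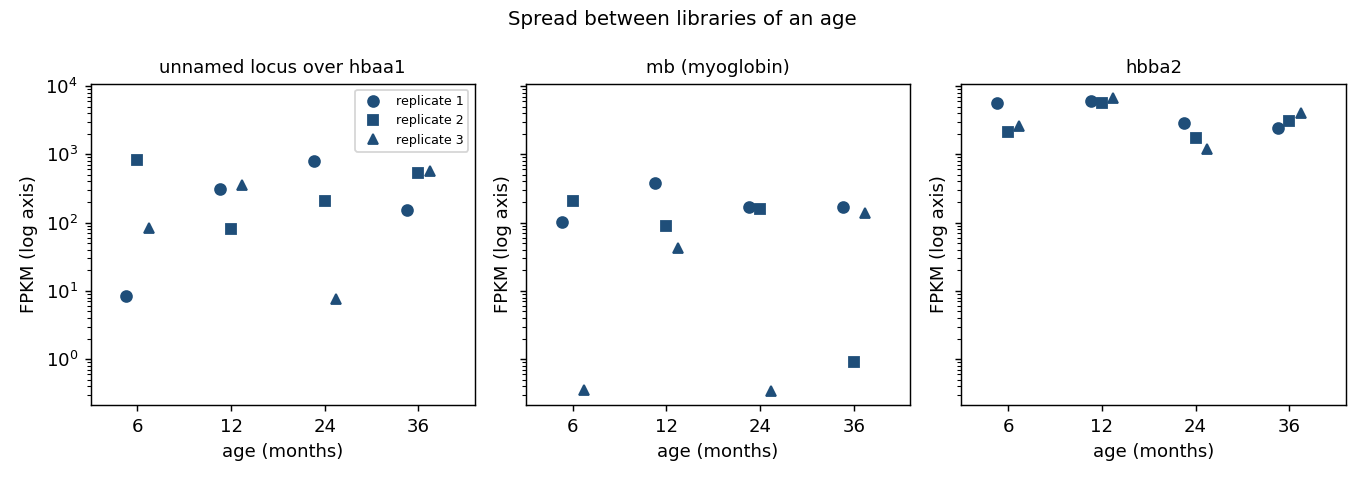
Level (FPKM, log axes) of the locus without a name over hbaa1, of mb and of hbba2 in each library by age in months; symbols mark the replicate. Libraries of one age differ by up to 105-fold for the locus over hbaa1 and by at most 2.63-fold for hbba2.

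The gene alas2 (ENSDARG00000038643, chromosome 8, 21321581 to 21338183, plus strand) was measured well, from 728 to 2246 reads per library. It held 42.8, 40.0 and 24.8 FPKM at 6 months and 39.7, 29.1 and 59.3 at 12 months. At 24 months it held 44.1, 25.9 and 28.3 FPKM, and at 36 months 60.5, 28.7 and 47.1. All ages overlapped. By mean level the order was 36 months (45.4 FPKM), 12 months (42.7), 6 months (35.9) and 24 months (32.7), and no neighbours differed beyond their spread. The difference of 36 against 6 months was 0.31 on the log2 scale (95% interval -0.44 to 1.05, limma, adjusted p = 0.604), and over the 4 ages the adjusted p was 0.708. The locus without a name over it held at most 1.43 FPKM. Its homologue alas1, which serves haem synthesis outside red cells, was listed at 0 in all libraries and has an overlapping locus without a name.

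The gene gata1a (ENSDARG00000013477, chromosome 11, 25174298 to 25181240, minus strand) held 0.0490 to 0.628 FPKM, 1 to 15 reads per library, below the level tested. A locus without a name that carries a GATA zinc finger and covers all of it on its strand held 1.37 to 3.68 FPKM. Both together gave 1.73 to 5.15 FPKM, with 89.6% of the reads from that locus. The highest values were those of replicate 3 of 12 months (5.15 FPKM) and replicate 1 of 36 months (4.61), and the lowest those of the other 12-month libraries (1.73 and 1.81). No comparison of the joint level passed (36 against 6 months 0.12 on the log2 scale, limma, adjusted p = 0.814; 4 ages, adjusted p = 0.821).

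Other red cell genes are given beside the members, and whether they measure blood content was not tested. The carbonic anhydrase cahz held 426, 730 and 472 FPKM at 6 months, 560, 500 and 584 at 12 months, 456, 388 and 336 at 24 months, and 871, 408 and 634 at 36 months. The nuclear protein hemogen, hemgn, held 90.2, 150 and 109 FPKM at 6 months, 85.8, 93.7 and 130 at 12 months, 77.5, 74.2 and 84.6 at 24 months, and 201, 76.6 and 114 at 36 months. Neither was called over the 4 ages (limma, adjusted p = 0.362 and 0.456). Over the 12 libraries, cahz and hemgn varied together (Pearson r 0.88), alas2 with cahz (0.71) and with hemgn (0.63), and hbba2 less closely with alas2 (0.41), cahz (0.25) and hemgn (0.01). The libraries are shared by all these genes, and the correlations are a description. The ratio of hbba2 to alas2 FPKM ran from 39.7 in replicate 1 of 36 months to 196 in replicate 2 of 12 months. Another pair of red cell markers, the anion exchanger slc4a1a and the membrane protein epb41b, were at 0 in 9 libraries each, with an overlapping locus without a name.

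Calls for age were made among the globin genes of the chromosome 12 locus, and whether they differ from hbba2 in their change with age was not tested. The gene named hbz in the tables and hbae4 in the reference gene table (ENSDARG00000045144, chromosome 12, 20214196 to 20215400, plus strand) is an embryonic alpha-type globin, measured from 461 to 920 reads per library with no overlapping locus on its strand. It held 64.7, 93.7 and 62.9 FPKM at 6 months and 84.2, 69.2 and 85.5 at 12 months. At 24 months it held 77.0, 89.9 and 92.3 FPKM, and at 36 months 162, 121 and 140. The 3 libraries of 36 months stood above the other 9. From 6 to 36 months its mean rose from 73.8 ± 17.3 to 141 ± 20.5 FPKM, by 0.94 ± 0.17 (SE) on the log2 scale (95% interval 0.56 to 1.32, limma, adjusted p = 0.0127). It rose by 0.82 from 12 to 36 months (adjusted p = 0.0340) and by 0.030 per month in the trend (adjusted p = 0.0138), and the F test gave 0.0335. From 24 to 36 months the difference was 0.70 (adjusted p = 0.0885).

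The trend of hbz passed in all 23 alternatives. The call for 36 against 6 months was lost with only those ages fitted (adjusted p = 0.0720, range over the alternatives 0.00775 to 0.0720). The call against 12 months was lost in 9 of 23 alternatives (adjusted p from 0.0203 to 0.123 over the alternatives), among them leaving out replicate 1 (0.0898) or 2 (0.123) of 12 months, replicate 2 of 24 months (0.0515), or replicate 1 (0.105), 2 (0.0559) or 3 (0.0861) of 36 months. The others were no filter (0.0597), the replicate block (0.0764) and only those ages fitted (0.0546). The F test was lost in 11 of 22 alternatives, among them no filter (0.0617) and the replicate block (0.0806), over a range of 0.0180 to 0.112. The F call ended when any 24-month library (0.0546, 0.0578 and 0.0561) or any 36-month library (0.112, 0.0613 and 0.0941) was left out, and also without replicate 3 of 6 months (0.0579) and without replicate 1 (0.0606) or 2 (0.0572) of 12 months. For 36 against 24 months, leaving out replicate 2 of 6 months gave an adjusted p of 0.0488 (range 0.0488 to 0.251).

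Its neighbours in the locus stood lower. The alpha-type hbae5 (20220577 to 20231667, plus strand) held 1.58, 1.91 and 0.576 FPKM at 6 months, 1.06, 1.62 and 1.25 at 12 months, 1.94, 1.85 and 2.56 at 24 months, and 3.34, 3.54 and 2.47 at 36 months. The 36-month libraries stood above those of 6 and 12 months and overlapped those of 24 months, and the trend of 0.030 on the log2 scale per month passed (limma, adjusted p = 0.0246). It was lost with no filter (0.0535) and without replicate 3 of 6 months (0.0566), replicate 1 of 36 months (0.0762) or replicate 2 of the latter (0.0778), over a range of 0.0182 to 0.0778. For 36 against 6 months hbae5 gave 0.84 (adjusted p = 0.0539, range 0.0475 to 0.159), and it passed with quantile normalization (0.0480), with eBayes without trend (0.0485) and without replicate 1 of 6 months (0.0475). For 36 against 12 months it gave 0.83 (adjusted p = 0.0823, range 0.0428 to 0.214), and without replicate 3 of 6 months it passed (0.0428).

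The beta-type hbbe2 (20227991 to 20228755, minus strand) had a mean of 0.869 FPKM and was below the level tested. It held 0.322, 0.409 and 0 FPKM at 6 months, 0.348, 0.385 and 0.595 at 12 months, 0.346, 0.457 and 1.31 at 24 months, and 1.61, 1.70 and 2.94 at 36 months, from 54 reads in all. The 36-month libraries stood above the other 9. With no filter on low values, which tested 39378 genes, limma called it higher at 36 months (mean 2.08 FPKM) than at 6 months (mean 0.244 FPKM, adjusted p = 0.0374) and rising in the trend (adjusted p = 0.0347), where it called 2.26% and 1.91% of all genes. It lies within the span of hbae5 on the opposite strand, and no strand setting is given in the sources used here. Reads of hbae5 and hbbe2 may thus be mixed where their exons overlap, and whether they do was not checked. Over the 12 libraries hbz and hbae5 had a Pearson r of 0.78, and hbz and hbba2 of -0.25. With other red cell genes the r of hbz was 0.49 for cahz, 0.46 for hemgn and 0.41 for alas2.

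The remaining haemoglobin rows were hbbe3 on chromosome 12 and, on chromosome 3, hbae1, hbae1.3, hbae3, hbbe1.1, hbbe1.2, hbbe1.3 and both rows named HBZ (1 of many). They held 0 to 1.41 FPKM and 1 to 15 reads in all libraries together where any were seen. The HBZ row ENSDARG00000079078 lies under the locus over hbaa1, so its level is uncertain. Of the 12 named haemoglobin rows on both chromosomes other than those chosen by name, 2 were tested, hbz and hbae5. The water channel gene aqp8a.1, which starts 30.0 kilobases from the left end of hbz, held 1426 to 4331 FPKM, highest in replicate 2 of 6 months. Among globins outside red cells, cygb2, a cytoglobin, held 7.13, 9.70 and 6.87 FPKM at 12 months and 1.83 to 4.96 FPKM in the other 9 libraries. It fell by 1.23 on the log2 scale from 12 to 36 months (limma, adjusted p = 0.0124), a call lost without replicate 2 of 12 months (0.0512) and with only those ages fitted (0.0567, the highest of its alternatives, from 0.0124). The other cytoglobin, cygb1, held 1.91 to 7.82 FPKM and was called in no comparison, and neuroglobin, ngb, and globin X, xgb, held at most 0.585 FPKM.

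**Figure D4:**
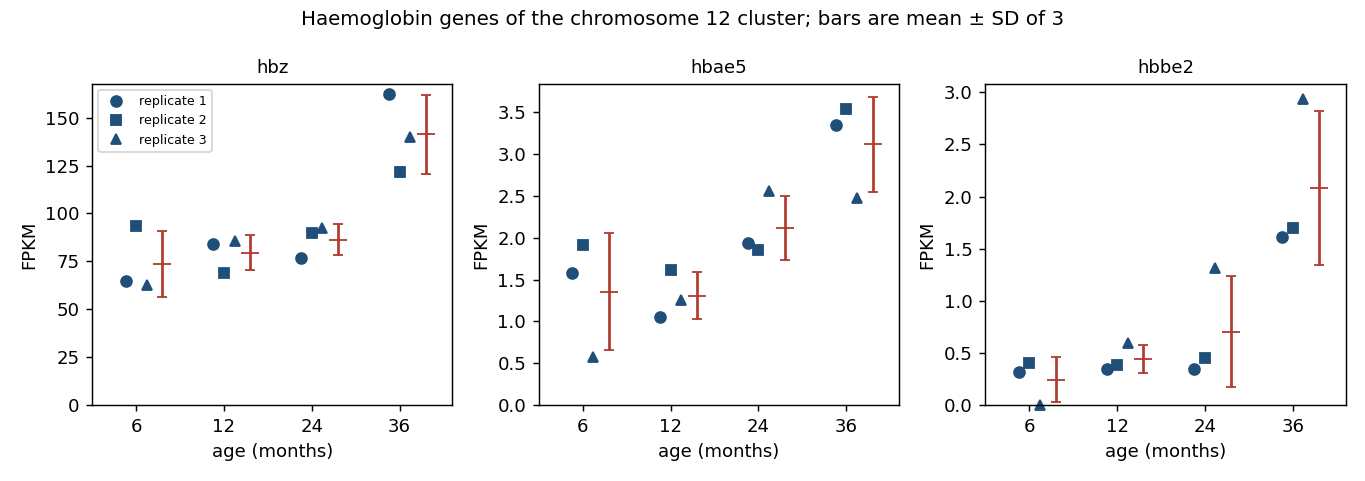
Level (FPKM, linear axes from 0) of the chromosome 12 genes hbz, hbae5 and hbbe2 in each library by age in months; symbols mark the replicate and bars the mean ± SD of 3. For hbz and hbbe2 the 3 libraries of 36 months lie above the other 9.

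The wider erythroid programme was described with lists written from general knowledge. Whole hearts hold other cells as well, and in which cells these genes were expressed or changed was not tested. For 36 against 6 months, where limma called 3.95% of all genes as higher and 4.3% as lower and the median of all genes was 0, haem synthesis had 0 of 8 tested genes called (3 at an unadjusted p under 0.05, as 25.6% of all genes tested were, and a median of 0.29 on the log2 scale). Of its late steps, ppox (protoporphyrinogen oxidase, 3.21 to 4.47 FPKM in the means of 6 and 36 months) and cpox (coproporphyrinogen oxidase, 18.5 to 11.8 FPKM) had adjusted p of 0.0986 and 0.172. An overlapping locus without a name makes the level of cpox uncertain. The early steps alad and hmbsa gave -0.20 and -0.40 on the log2 scale (limma, adjusted p = 0.532 and 0.186).

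Of 11 haem transport and breakdown genes tested for 36 against 6 months, 1 rose and 1 fell (3.95% and 4.3% over all genes). The porphyrin transporter abcb6a rose from 10.2 ± 3.83 to 21.8 ± 1.81 FPKM (1.08 on the log2 scale, limma, adjusted p = 0.0177). The haem transporter slc48a1a fell from 5.83 ± 1.85 to 2.19 ± 0.754 FPKM (by 1.09, adjusted p = 0.0186). An overlapping locus without a name makes both levels uncertain. Fitting only those ages (0.0852) or leaving out replicate 3 of 6 months (0.0547) or replicate 2 (0.0571) or 3 (0.0520) of 36 months ended the call of abcb6a, whose adjusted p ran from 0.00708 to 0.0852. Fitting only those ages (0.0980) or leaving out replicate 2 of 6 months (0.0614) or replicate 1 (0.0604) or 3 (0.0565) of 36 months ended that of slc48a1a, which ran from 0.0115 to 0.0980. The mitochondrial transporter abcb10, with an overlapping locus without a name, and the folate and haem carrier slc46a1 did not pass (limma, adjusted p = 0.181 and 0.715).

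Of 11 iron genes tested for 36 against 6 months, 3 rose and 0 fell, with a list median of -0.11 on the log2 scale. Over all genes limma called 3.95% as higher and 4.3% as lower there. The iron sensor ireb2 rose from 19.2 ± 1.41 to 34.2 ± 3.42 FPKM (0.80 on the log2 scale, limma, adjusted p = 0.00842), and its call held in all 23 alternatives. Mitoferrin 1, slc25a37, which brings iron into mitochondria of red cell precursors, rose from 5.04 ± 2.65 to 14.2 ± 2.16 FPKM (1.42, adjusted p = 0.0271). Its call was lost with no filter (0.0575), with the replicate block (0.0526), with only those ages fitted (0.0842), without replicate 3 of 6 months (0.0708) and without replicate 1 (0.0650), 2 (0.0644) or 3 (0.0790) of 36 months, over a range of 0.0192 to 0.0842. The iron importer slc11a2 rose from 54.5 ± 9.32 to 106 ± 15.7 FPKM (0.96, adjusted p = 0.0169), with an overlapping locus without a name, and was lost with only those ages fitted (0.0555) and when replicate 2 of either 6 months (0.0570) or 36 months (0.0598) was left out, over a range of 0.0114 to 0.0598. The related mitoferrin slc25a28, used in tissues at large, did not pass (-0.14, adjusted p = 0.603).

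Of 12 erythroid transcription factors tested, limma called 0 for 36 against 6 months, 2 of them at an unadjusted p under 0.05 (25.6% over all genes), with a list median of 0.45 on the log2 scale. In the trend, where limma called 4.25% of all genes as rising, 2 of the 12 rose. The stem cell and erythroid factor tal1 went from 24.1 ± 7.14 FPKM at 6 months to 46.0 ± 10.7 at 36 months (0.034 on the log2 scale per month, adjusted p = 0.0253), and the repressor gfi1ab from 0.926 ± 0.237 to 2.16 ± 0.634 FPKM (0.023 per month, adjusted p = 0.0373). The trend of tal1 was lost with no filter (0.0537), with the log2 of age (0.0620), without replicate 3 of 6 months (0.0521), and without replicate 1 (0.0861) or 3 (0.0689) of 36 months, over a range of 0.0166 to 0.0861. That of gfi1ab was lost with no filter (0.0739), with voom (0.0750), without replicate 2 (0.0847) or 3 (0.0777) of 6 months, replicate 1 (0.0567) or 2 (0.0559) of 12 months, or replicate 1 (0.127) or 2 (0.0643) of 36 months, over a range of 0.0265 to 0.127. The gene bcl11aa, whose mammalian homologue acts in globin switching, and the progenitor factor myb did not pass (adjusted p = 0.825 and 0.367 for 36 against 6 months).

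Of 9 red cell membrane genes tested, limma called 1 as lower and 0 as higher for 36 against 6 months. The list median was 0.23 on the log2 scale, with 5 of the 9 above 0. In that comparison limma called 4.3% of all genes as lower and 3.95% as higher. Glycophorin C, gypc, which anchors the membrane skeleton, fell from 42.9 ± 7.16 to 17.0 ± 5.26 FPKM (by 1.31 on the log2 scale, limma, adjusted p = 0.0134), and the call was lost without replicate 2 of 36 months (0.0513) and with only those ages fitted (0.0503), over a range of 0.00904 to 0.0513. The tropomodulin tmod1 (-0.52), the spectrin sptb (-0.45) and the water channel aqp1a.1 (0.82) did not pass (limma, adjusted p = 0.123, 0.339 and 0.0785). An overlapping locus without a name makes the level of sptb uncertain. Of 9 genes tested from the red cell enzyme list, limma called 0 in that comparison, and 0 had an unadjusted p under 0.05, as 25.6% of all genes tested did. Among them were cahz, gpx1a, urod and nt5c3a (limma, adjusted p = 0.667, 0.308, 0.335 and 0.538). Of 5 genes tested from the erythropoietin signalling list, 1 rose. The kinase jak2a, which signals from the erythropoietin receptor, went from 25.5 ± 4.71 to 63.3 ± 4.39 FPKM (1.29, limma, adjusted p = 0.00235). Its call was kept in all 23 alternatives, and it has an overlapping locus without a name. Its paralogue jak2b, the Kit ligand kitlga and the erythropoietin receptor epor did not pass (limma, adjusted p = 0.380, 0.997 and 0.364). An overlapping locus without a name makes the level of epor uncertain.

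**Figure D5:**
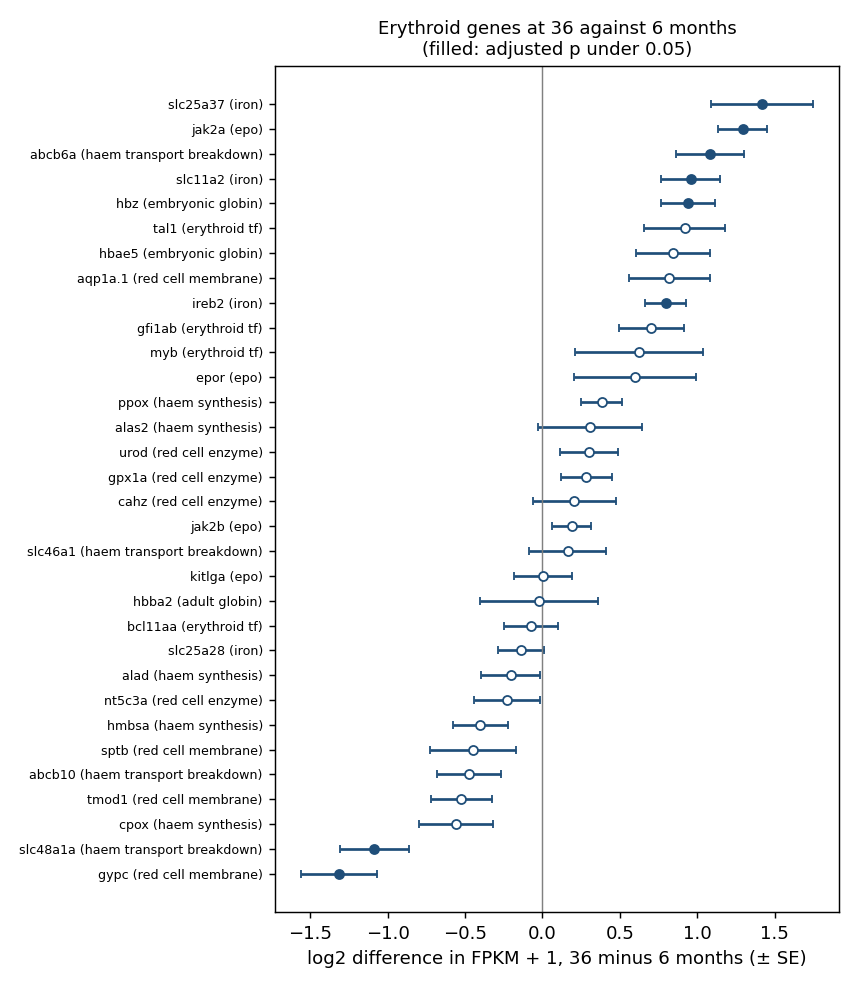
Log2 difference in FPKM + 1 at 36 minus 6 months (± SE, 12 libraries in the fit) for the genes named from each erythroid list, filled where the limma adjusted p is under 0.05. In which cells these genes changed was not tested. The filled points are slc25a37, jak2a, abcb6a, slc11a2, hbz and ireb2 above 0 and slc48a1a and gypc below it, while hbba2 lies at -0.02.

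Markers of other cells moved between the same libraries. The 27 hepatocyte markers summed to 1101 FPKM in replicate 2 of 12 months and 328 in replicate 1 of 6 months, where hbba2 was at 5692 and 5590 FPKM, and to 7.78 to 87.2 FPKM in the other 10, which include replicates 1 and 3 of 12 months (20.9 and 47.4). The 19 macrophage markers summed to 1050 FPKM in replicate 1 of 6 months against 338 and 316 in its fellows, to 377 to 850 at 12 months, 500 to 720 at 24 months and 674 to 1286 at 36 months. The 24 lymphocyte markers summed to 146, 59.2 and 55.7 FPKM at 6 months and to 118 to 199 at 36 months. Cardiomyocyte markers, 30 genes, summed to 14836 to 20648 FPKM at 12 months and 12767 to 15329 in the other 9 libraries. Among defining markers, the thrombocyte gene gp1bb, the macrophage genes mfap4 and marco and the endothelial genes cdh5 and tie1 were at 0 in all 12 libraries, each with an overlapping locus without a name. Of the same cells, the thrombocyte gene mpl (3.57 to 11.7 FPKM), the macrophage gene mpeg1.1 (19.7 to 91.3) and the endothelial gene kdrl (67.5 to 121) were seen in every library. The thrombocyte gene itga2b was at 0 in 7 libraries. The part of these cells in the values of hbba2 and hbz was not tested.

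Genes whose pattern was most like the summed adult globins were named by Pearson r of log2(FPKM + 1) over the 12 libraries. That sum took the rows named hbba1, hbba2, hbaa1 and hbaa2 and left out the loci without a name. It was thus almost hbba2 alone (in replicate 1 of 36 months 2414 FPKM, of which hbba2 held 2405) and left out the locus over hbaa1. The 10 highest were mfap1 (0.93), cxcl12a (0.88), ifit12 (0.86), gpr19 (0.85), fam102ab, il13ra2 and gabarapl2 (0.83 each), igfbp2a and slc38a5b (0.82 each) and ca5a (0.81). Among them cxcl12a encodes a chemokine and igfbp2a a binding protein of insulin-like growth factors, and none belongs to the erythroid lists. Closest to alas2 were cyp46a1.1 (0.89), prpf4bb (0.87) and pdcd10a (0.84). Closest to the gata1a row alone, with 76 reads in all, were rnf11b (0.90), ccdc142 (0.90) and nubp1 (0.89). All these r are the highest of a search through the tested genes, which by itself favours high values. With deviations from the age means, 1 of the 10 genes stayed among the 10 highest for the globins, and with Spearman's rho 5 did.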

How the data were processed

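The deposited values are FPKM per gene in 4 tables, made by the authors with 1 column per library. CASAVA 1.8, HISAT2 2.0.5 and the build GRCz11 are named in the submitters' processing notes. The counting tool, its strand setting and the source of the loci without a name are not given in the sources used here. FPKM times length gave whole reads for 100% of values within 0.01 read, and these were used for read numbers and voom.

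Genes with a mean of at least 1 FPKM over the 12 libraries, 16223 in all, were tested on log2(FPKM + 1), so fold changes of low genes are understated. limma 3.58.1 in R 4.3.3 fitted 4 age means (8 residual degrees of freedom, eBayes with trend). That fit gave the 6 pairs of ages and an F test over the 4 ages. The slope on age in months came from a separate fit with age as a linear term. All tests were two-sided. Benjamini-Hochberg adjustment ran over the 16223 genes in each, with a threshold of 0.05. The procedure was tested on simulated data. Descriptive values and plots came from Python 3.11.15.

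The genes described and the 17 lists (281 symbols, 15 of them unmatched) were chosen with earlier results of these data known. From each erythroid list the text names genes called in the F test, the trend or 36 against 6 months and up to 4 with the smallest F test p. Likeness excludes clone and placeholder names. Alternatives changed the pseudocount, filter, scaling, variance prior, count model, age scale, libraries and replicate block. The scaling alternative by median-ratio size factors lay close to the deposited scaling. Adding the reads of overlapping loci in the tests was chosen after seeing the data. No sequence is shown, because none was used here.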

Additional observations from a re-analysis of the deposited data

How the results depend on the processing

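Of the genes chosen by name (hbba1, hbba2, hbaa1, hbaa2, alas2 and gata1a), hbba2 gained calls. With a minimum of 5 FPKM, 1 of these genes was called for 24 against 12 months. For every other comparison and alternative that kept all libraries, limma called 0 of these genes. Leaving out 1 library gave 0 to 1 of them called over the 4 ages and for 24 against 12 months and 0 otherwise. Over all genes tested, leaving out 1 library gave 310 to 1653 calls over the 4 ages (857 with all), and 529 to 2125 for the trend (1341). Against 6 months it gave 0 to 30 at 12 months (3), 20 to 320 at 24 (115) and 479 to 2088 at 36 (1338). Against 12 months it gave 1 to 246 at 24 (116) and 96 to 967 at 36 (510), and between 24 and 36 months 37 to 399 (181). With no filter the counts were 433 over the 4 ages, 752 for the trend, 0, 49 and 889 at 12, 24 and 36 months against 6, and 53 at 24 against 12.

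Same-numbered replicates of different ages had correlations of -0.154 to 0.106 over 18 pairs, 1 of them over 0.1, so the numbers were not taken as pairs. With the replicate block the counts were 354 over the 4 ages, 843 for the trend, 0, 50 and 885 at 12, 24 and 36 months against 6, 41 and 277 at 24 and 36 months against 12, and 64 at 36 against 24. With only the compared ages they were 0, 2 and 278 for 12, 24 and 36 against 6 and 143 for 36 against 12. For 12 against 6 months the count was 1 with a minimum of 5 FPKM, and 0 with equal FPKM sums without mitochondrial genes and with eBayes without trend. For 36 against 24 months it was 115 with a pseudocount of 0.1, 118 with a minimum of 5 FPKM, 64 with voom and 114 with eBayes without trend. The cause was not tested.

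With the reads of overlapping loci added, mean levels became 40.0 FPKM for hbba1 copy A (0.256 alone), 30.4 for copy B (1.28), 448 for hbaa1 (0) and 3.10 for gata1a (0.320). The added reads were scaled by the length of the named gene, and those over both hbba1 copies were counted in each. Of the 10 genes most like the sum of the named adult globins, which is almost hbba2 alone, 5 stayed with Spearman's rho. With deviations from the age means 1 stayed, and without 1 library 3 to 9 did. Few reads limit gata1a, hbaa2, hbbe2 and both hbba1 rows. Overlapping loci without a name held 89.6% of the joint reads of gata1a, 99.4% of those of hbba1 copy A and 96.1% of those of copy B. No direction of a called result reversed among the chosen genes, the other globins and the named erythroid genes. The calls of the other cell markers given below were not followed through the alternatives.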

Other observations

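Other blood cells were seen in the same libraries. Of 3 thrombocyte genes tested, limma called mpl, the thrombopoietin receptor, over the 4 ages and as lower at 36 than at 24 months, where it called 5.28% and 1.12% of all genes. It held 9.53 to 11.7 FPKM in the 3 libraries of 24 months and 3.57 to 6.87 in the other 9. Of 10 neutrophil genes tested, the lysozyme lyz was called over the 4 ages and as higher at 24 than at 6 months (0.709% of all genes called), with 76.3, 12.8 and 10.7 FPKM at 6 months and 347, 1336 and 781 at 24 months, and mmp9 as higher at 36 than at 6 months (8.25% of all genes called). Of 12 macrophage genes tested 0 were called for 36 against 6 months by limma (3 at an unadjusted p under 0.05, against 25.6% of all genes), and of 12 lymphocyte genes tested 2 rose, themis and the light chain gene igl3v3. In the same comparison, of 12 endothelial genes tested 3 rose (kdr, lyve1a and sox7), of 17 cardiomyocyte genes tested 1 rose and 3 fell, and of 15 hepatocyte genes tested limma called 0, with 0 at an unadjusted p under 0.05.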
